A study of Mus musculus and Bos taurus with 2 samples.

Results

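The 6 genes described here encode RNA-binding proteins and adaptors that oocytes use to store, translate and remove maternal messenger RNA: Zar1, Zar1l, Btg4, Cpeb1, Zfp36l2 and Dazl. Their transcripts were taken from 2 sets of transcript models, assembled from nanopore long reads of cDNA. A model belonged to a gene when the deposited gene name equalled the symbol, ignoring case, and when its class code placed it on the strand of that gene (=, c, k, m, n, j or o). By this rule 19 of 42028 mouse models and 20 of 40819 bovine models were members, 39 of 82847 in all. The mouse library came from late 2-cell embryos, collected 36 h after in vitro fertilization of superovulated Slc:ICR oocytes and cultured in KSOM medium. For cattle, 8-cell to 16-cell embryos were collected 72 h after fertilization with the sperm of a Japanese Black bull; their oocytes were matured in vitro and came from Japanese Black cows or from F1 animals of Japanese Black × Holstein. Both groups were in vitro produced and untreated beyond that, each pooled approximately 200 embryos, and each gave 1 library, so no value below has a replicate error and no test was possible. Species, stage and hours after insemination differ together between the libraries and cannot be told apart. The files give positions only, with no read numbers, so the reads behind a model cannot be counted, and the lack of a model for a gene does not show that it was silent.

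A full-grown oocyte holds a large store of messenger RNA and transcribes little until the embryo activates its own genome. CPEB1 binds uridine-rich cytoplasmic polyadenylation elements in 3′ untranslated regions and holds transcripts silent or lengthens their poly(A) tails, and DAZL promotes the translation of germline transcripts. ZAR1 and ZAR1L are zinc finger proteins that bind maternal transcripts and take part in their storage. BTG4 is an adaptor that brings the CCR4-NOT deadenylase to maternal transcripts, and ZFP36L2, of the TIS11 family, binds AU-rich elements and starts their decay. In the mouse all 6 are known to be expressed in the oocyte.

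All 6 genes had a sense model in both libraries. They were chosen with earlier results of these data known, so this count describes the choice and is not a finding. In mouse, 53.5% of the protein-coding genes of the RefSeq table had such a model (95% interval 52.9% to 54.2%, Clopper-Pearson, counting error only). No such share was computed for cattle. Zar1l and Cpeb1 had the most models in mouse, with 7 and 5, and CPEB1 and ZAR1 had the most in cattle, with 9 and 6. The order in mouse was Zar1l 7, Cpeb1 5, Dazl 3, Zar1 2, and Btg4 and Zfp36l2 1 each. In cattle it was CPEB1 9, ZAR1 6, ZFP36L2 2, and ZAR1L, BTG4 and DAZL 1 each. Counting exact matches alone (models whose whole chain of introns equals that of a reference transcript), the order in mouse was Cpeb1 4, Zar1l 3 and 1 for each other gene, and in cattle CPEB1 8, ZAR1 2, BTG4 0 and 1 for each other gene. Without models that carry a reference gene identifier, Zar1l had 4, Cpeb1 and Dazl 2 each, Zar1 and Zfp36l2 1 each and Btg4 0, while ZAR1 had 6, ZFP36L2 2, ZAR1L, BTG4 and CPEB1 1 each and DAZL 0. Zar1l and Cpeb1 thus exchanged places with exact matches alone, and the high count of CPEB1 rests on models with the identifier. In all models and in exact matches, the paralogs Zar1 and Zar1l stood in opposite order in the libraries.

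Several models per gene were common in both files. Of the 6 genes, 4 in mouse and 3 in cattle had 2 or more models, where the share among all named genes with a sense model was 51.2% in mouse (50.3% to 52.0%) and 57.9% in cattle (57.1% to 58.7%). At 5 or more models stood 2 of the 6 in each library, against 9.96% of mouse genes and 13.0% of bovine genes. A count as high as the 7 models of Zar1l was reached by 3.37% of mouse genes, the 9 of CPEB1 by 1.77% of bovine genes and the 6 of ZAR1 by 8.01%. With 6 genes, such counts describe these genes and not the group.

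Exact matches have the class =. In mouse 11 of the 19 models were exact matches, 7 shared at least 1 splice junction with the reference and differed elsewhere (class j), and 1 had class m, which stands for introns that are matched or retained. In cattle 13 of 20 were exact, 5 were of class j, 1 was an unspliced piece contained in the reference (c) and 1 overlapped it otherwise (o). Each of the 6 genes had an exact match in mouse, where 72.5% of genes did, and 5 of 6 had 1 in cattle, where 65.5% did. BTG4 was the bovine gene without an exact match. A model other than an exact match was present for 4 of 6 genes in both libraries, against 56.8% of mouse and 68.5% of bovine genes. All 19 mouse and all 20 bovine intron chains were distinct, so no model repeated another.

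**Figure D1:**
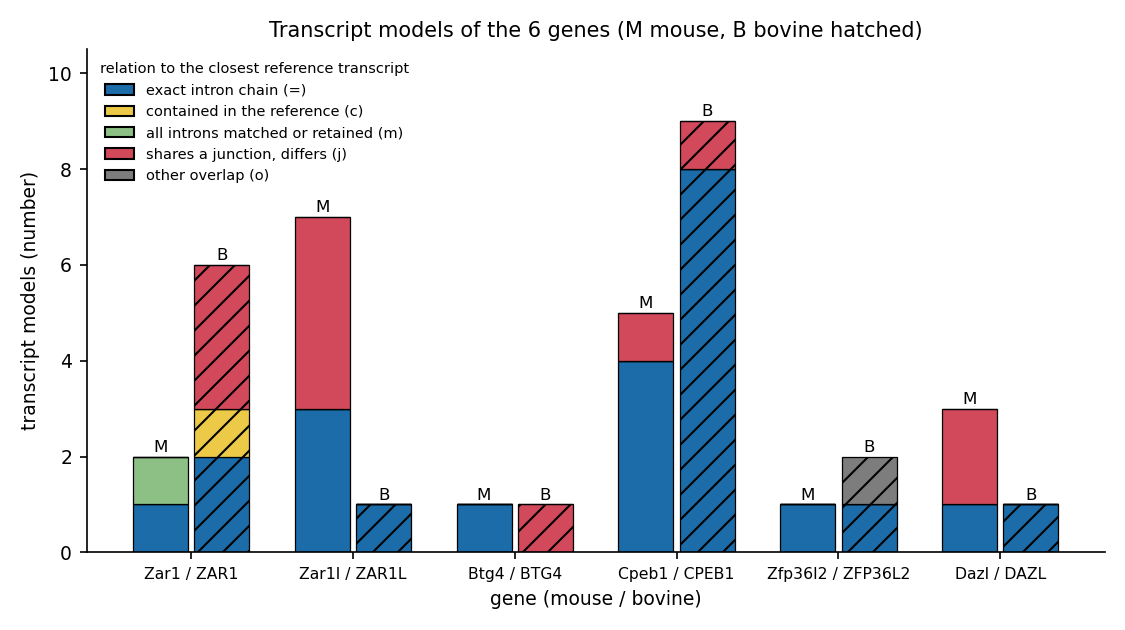
Number of transcript models (vertical axis) for each of the 6 genes (horizontal axis), mouse bars plain and marked M, bovine bars hatched and marked B, coloured by class code. Cpeb1 has 5 models in mouse and 9 in cattle, mostly exact matches, while the 7 mouse Zar1l models include 4 of class j.

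Some exact matches carry the identifier of a reference gene, 9 of the 11 in mouse and 9 of the 13 in cattle, and the starts of such models mostly equal those of the reference. Among spliced mouse matches to curated RefSeq transcripts, 97.0% of those with the identifier began at the very base of the start in the RefSeq promoter table, which gives 1 start per entry, against 26.0% of those without it. The identifier was on all 8 exact CPEB1 matches and on the bovine DAZL model. The starts and ends of these models are therefore given below as positions in the file, not as measured ends. The mouse Zfp36l2 model and all the ZAR1, ZAR1L, BTG4 and ZFP36L2 models lacked the identifier.

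Cpeb1 had the longest locus of the 6 genes, and its models held the same small splicing choices in both species. The mouse models lay on chromosome 7 from 81347026 to 81455673 (mm10, minus strand) and spanned 107733 or 108648 bases, with 11 or 12 exons and 3006 to 3451 spliced bases. The bovine exact matches lay on chromosome 21 (bosTau9, minus strand), with 12 exons and 3153 to 3314 spliced bases. At the third exon, models used either of 2 acceptors 3 bases apart, which gave an exon of 189 or 192 bases. The shorter form was in 3 mouse and 5 bovine models and the longer form in 2 mouse and 4 bovine models. At the seventh exon, 2 donors lay 15 bases apart and gave an exon of 90 or 105 bases. There the shorter form was in 1 mouse and 2 bovine models and the longer form in 3 mouse and 7 bovine models. The mouse model with the 90-base exon and every bovine model but 1 carry the reference identifier. Whether the choices shared by the species come from the reads or from the reference transcripts was not tested.

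Both alternative pieces are whole multiples of 3 bases, so the reading frame is kept. The frame of the mouse Cpeb1 models, read from the annotated start codon, ran for 561 codons in model 3, 562 in model 5 and 556 in model 4, each time to the annotated stop codon.

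Of 724 genes with an alternative site of an internal exon in both libraries, 32.5% had at least 1 of the same kind with the same pair of exon lengths in mouse and cattle (29.1% to 36.0%). Agreement at 2 or more sites, as in Cpeb1, was found in 3.59% of them (2.36% to 5.22%). Genes with only 1 such site in a library could not reach 2, so this share does not show how unusual Cpeb1 is. All 4 forms of these exons occur in reference transcripts of the mouse gene. Apart from Cpeb1, only mouse Dazl had such a site, and the bovine DAZL model had none.

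In cattle the 8 exact CPEB1 matches were built from these choices and 3 first exons. Models 2 and 3 began in the first exon farthest upstream (143 and 144 bases) and had the 105-base exon with the 189-base or the 192-base exon. Models 4, 6, 7 and 8 began in a second exon (272 to 280 bases) and held all 4 combinations, including both models with the 90-base exon. Models 5 and 9 began in an exon of 122 bases closest to the second exon and again differed only at the 3-base choice. All 8 carry the reference identifier, so these starts may be those of the reference.

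Mouse Cpeb1 model 1 skipped the 105-base exon, and the intron that skips it, 1293 bases long, was not in GENCODE. Its frame was 526 codons long and ended at the annotated stop codon. Model 2 began 915 bases upstream of the promoter-table start, 208 bases upstream of the nearest GENCODE start and 2328 bases downstream of the outermost RefSeq start of the gene, in another first exon, of 462 bases, and lacked the start codon of the main annotated transcript. Its exons did hold all coding bases of another annotated transcript, of 551 codons, which is annotated as incomplete and whose frame was not read. Model 2 had the longer form of the seventh exon, which adds bases inside that coding sequence. All 5 mouse models shared the last exon of 1414 bases and its end.

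**Figure D2:**
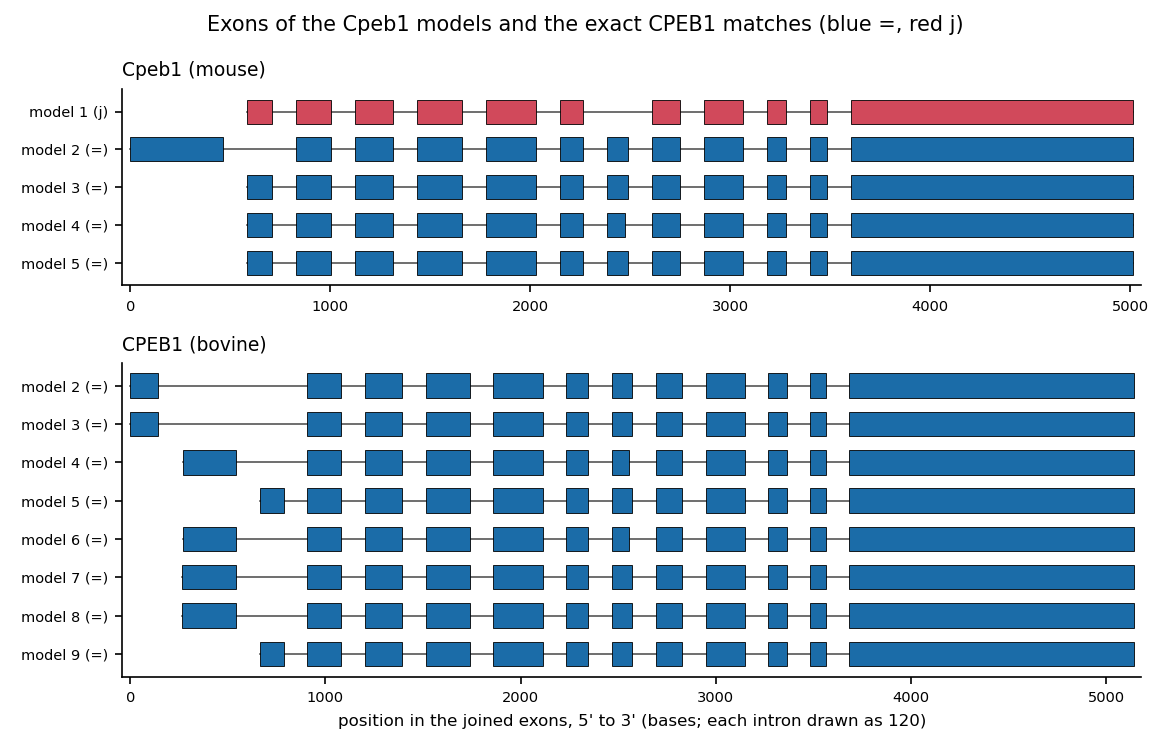
Exons of the 5 Cpeb1 models (mouse) and the 8 exact CPEB1 matches (bovine) drawn to scale along the joined exons in bases, 5′ to 3′, with each intron shortened to a fixed width; blue models are exact matches and the red model is of class j. Mouse model 1 lacks the 105-base exon, and the bovine models differ in 3 first exons.

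Zar1 and Zar1l share their middle exons in length and in part in sequence. Zar1 lay on mouse chromosome 5 from 72577114 to 72581253 and Zar1l on the same chromosome from 150506979 to 150518503, both on the minus strand. Each had an exon of 93 bases followed by an exon of 75 bases, and so did ZAR1 on bovine chromosome 6 and ZAR1L on bovine chromosome 12. These exons lie in the last part of the coding sequence, where the zinc finger domain of the family is found. The 93-base exons of the mouse paralogs were identical at 65 of 93 bases (69.9%) and the 75-base exons at 49 of 75 (65.3%). They are printed 5′ to 3′ to show how the paralogs differ, first the 93-base and then the 75-base exons, with the differing bases in capitals.
Zar1, chr5:72578426-72578518, minus strand: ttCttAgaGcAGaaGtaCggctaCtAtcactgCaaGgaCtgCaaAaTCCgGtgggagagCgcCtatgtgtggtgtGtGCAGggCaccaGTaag
Zar1l, chr5:150516968-150517060, minus strand: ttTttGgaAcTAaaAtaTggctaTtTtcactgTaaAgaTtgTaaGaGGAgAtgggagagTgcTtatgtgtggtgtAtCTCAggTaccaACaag
Zar1, chr5:72578272-72578346, minus strand: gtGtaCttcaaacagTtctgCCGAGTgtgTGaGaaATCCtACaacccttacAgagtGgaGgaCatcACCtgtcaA
Zar1l, chr5:150512869-150512943, minus strand: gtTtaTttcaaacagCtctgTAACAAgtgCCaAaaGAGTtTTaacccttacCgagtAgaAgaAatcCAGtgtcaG
A model is long enough to tell these copies apart over whole exons, since 28 and 26 bases differ.

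Zar1 model 1 was the annotated 4-exon transcript (801, 93, 75 and 290 bases), and its frame covered all 361 codons. Model 2 had the same last 3 exons and the same end, and began 169 bases upstream of the promoter-table start. That was 1 base from an annotated GENCODE start and 108 bases inside the outermost RefSeq start, so the start of model 2 was close to an annotated start. Within the annotated first exon it carried an intron of 582 bases (chromosome 5, 72580376 to 72580957) that was not in GENCODE. That length equals 194 codons, and the frame from the annotated start codon ran on to the annotated stop codon after 167 codons. Coding bases held by model 2 were 501 of 1083, or 46.3%. The bases at its junctions are printed because they bear on the intron itself: 10 bases of exon in lower case and 10 of intron in capitals at the donor, then 10 of intron and 10 of exon at the acceptor.
Zar1 donor, chr5:72580948-72580967, minus strand: tgccgacccgCGCCCCCCTC
Zar1 acceptor, chr5:72580366-72580385, minus strand: CCTGCCGCAGagatggctca
The intron began with CG and ended with AG. Of 1311 introns in mouse sense models that were outside GENCODE and inside a single annotated exon, 68.0% had the usual GT and AG (65.4% to 70.6%), and 83.1% had AG at the acceptor. Introns of at least 500 bases made up 41.8% of them.

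Zar1l had the most varied mouse models, with 7 intron chains, 4 starts and 4 ends. Within 100 bases the starts merged to 3 and the ends to 2. Models 2, 6 and 7 carry the reference identifier. Their starts, and the ends of models 6 and 7, occurred in no model without it, so these positions may be those of the reference. Model 2 was the annotated transcript with exons of 573, 93, 75 and 149 bases and a frame of 291 codons. Against the promoter-table start, where model 2 began, models 1, 3 and 5 all began 344 bases upstream, models 6 and 7 began 35 bases upstream, and model 4 began 573 bases downstream. The start of models 6 and 7, which carry the reference identifier, is the outermost RefSeq start of the gene, and models 1, 3 and 5 began 309 bases upstream of that. The 93-base exon was skipped in models 3, 4 and 5. In model 3 its loss left a frame of 260 codons that ended at the annotated stop codon, so 780 of 873 coding bases (89.3%) were held. An exon of 106 bases, from 150511767 to 150511872, lay between the 75-base and the last exon in models 4, 5 and 6. It was not annotated in GENCODE but is in a predicted RefSeq transcript, since model 6 is an exact match, and its length is not a multiple of 3.

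Zar1l model 1 used a donor 108 bases farther downstream, which lengthened the first exon to 1025 bases and left an intron of 418 bases. The first exon of model 4 was exactly that added piece of 108 bases. Model 4 was the shortest Zar1l model, at 438 bases, had no start codon and held 23.7% of the coding sequence. Model 7, also an exact match to a predicted RefSeq transcript, ended in another last exon of 329 bases, with 84.9% of the coding sequence and without the annotated stop codon. The frames of models 1, 5, 6 and 7 entered bases for which no sequence was used here after 191, 216, 247 and 247 codons, so their stop codons were not found. Of the 47 distinct introns of the 6 mouse genes, 12 were not in GENCODE. Of those, 6 were in Zar1l, 4 in Dazl, and 1 each in Zar1 and Cpeb1. The introns of Zar1l models 6 and 7 are in predicted RefSeq transcripts, which these models match exactly. The share outside GENCODE over all mouse models is not given here, so the count describes these genes only.

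Bovine ZAR1 was the more varied paralog in cattle. Models 2 and 3 began at 67172810 with a first exon of 342 bases, and models 4, 5 and 6 began at 67174467 with a first exon of 244 bases that ended at the same donor as the 93-base exon. The unspliced model 1, of 449 bases, ended 67 bases before the start of models 2 and 3. It is contained in the reference transcript that model 3 matches, so that reference begins upstream of models 2 and 3. Whether these models are pieces of 1 first exon was not tested. At the other end, models 2 and 5 finished in a last exon of 1971 bases, while models 3, 4 and 6 finished in exons of 65 and 305 bases that reached to 67187175. That last exon overlapped an exon of a FRYL model on the opposite strand. Model 4 also left out the 75-base exon, which was in the other 4 spliced models. The single ZAR1L model had exons of 899, 93, 75 and 282 bases and was an exact match.

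**Figure D3:**
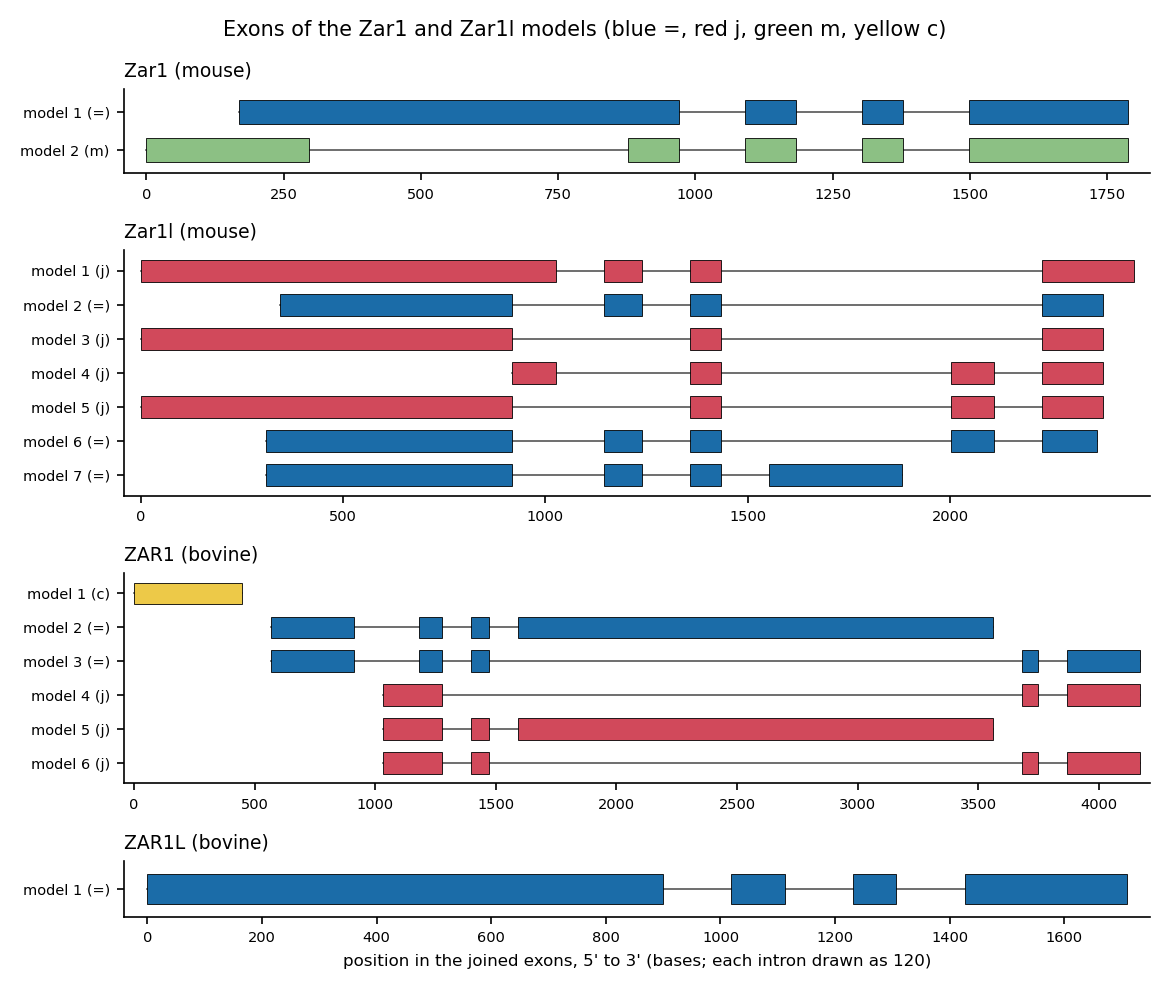
Exons of each Zar1 and Zar1l model in mouse (upper 2 panels) and of each ZAR1 and ZAR1L model in cattle (lower 2 panels), to scale along the joined exons in bases, 5′ to 3′, with introns shortened to a fixed width; colours give the class code. Mouse Zar1l and bovine ZAR1 show several starts and ends, and bovine ZAR1L has 1 model.

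Dazl had 3 mouse models on chromosome 17 from 50279393 to 50293620 (minus strand) and 1 bovine model on chromosome 1 from 153640071 to 153663068 (minus strand). Model 1 was the annotated transcript of 11 exons and 2964 spliced bases, with a frame of 298 codons. Models 2 and 3 began 19 bases downstream of the promoter-table start and ended 1 base before model 1. Model 3 carried an added exon of 109 bases, from 50291322 to 50291430, that was not annotated in GENCODE and fell between the first and the second annotated exon. The start codon of the main annotated transcript was in the first exon, 1 codon before that added exon. The start of a shorter annotated transcript lay beyond it, and from there the frame of 261 codons was whole.

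Dazl model 2 used a donor inside the first exon, which removed that start codon, and had a second intron of 42 bases inside the 147-base exon. Neither intron was in GENCODE. From the start of the shorter transcript its frame was again 261 codons to the annotated stop codon. The junction bases are printed as for Zar1, with intron bases in capitals.
Dazl first donor, chr17:50293508-50293527, minus strand: caccgcctcgGCTTTTTTTT
Dazl second donor, chr17:50289204-50289223, minus strand: gaggctccaaATTCAGCTGT
Dazl second acceptor, chr17:50289162-50289181, minus strand: TCTTCATCAGcaaccacaag
The first of these introns began with GC and the second ran from AT to AG. Introns shorter than 50 bases were 1.37% of the 1311 described above (0.816% to 2.16%). The bovine DAZL model had 11 exons and 2950 spliced bases and was an exact match.

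Btg4 had a single model in each library. The mouse model lay on chromosome 9 from 51116001 to 51119924 (plus strand), had 5 exons and 1535 spliced bases, and its frame of 250 codons ended at the annotated stop codon. The bovine model, on chromosome 15 from 21784571 to 21803427 (minus strand), also had 5 exons but 4382 spliced bases and was of class j. The difference lay in the outer exons: the first exon was 624 bases in cattle against 186 in mouse, and the last 3222 against 813. The mouse model carries the reference identifier and the bovine model does not, so the mouse ends may be those of the reference. Whether the outer exons differ between the species was not tested.

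Zfp36l2 had 1 mouse and 2 bovine models, all with 2 exons. The mouse model, on chromosome 17 from 84186607 to 84187945 (minus strand), was an exact match because its only intron was the annotated intron of 487 bases, but its last exon stopped inside the coding sequence. It held 601 of 1452 coding bases (41.4%), that is 200 of 484 codons, and no stop codon. In cattle both models began at 25510746 on chromosome 11 (minus strand). Model 2 was an exact match with exons of 354 and 860 bases and an intron of 492 bases. Model 1, of class o, had exons of 277 and 2188 bases around an intron of 1750 bases, so it skipped the whole of the exon in which model 2 ended.

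**Figure D4:**
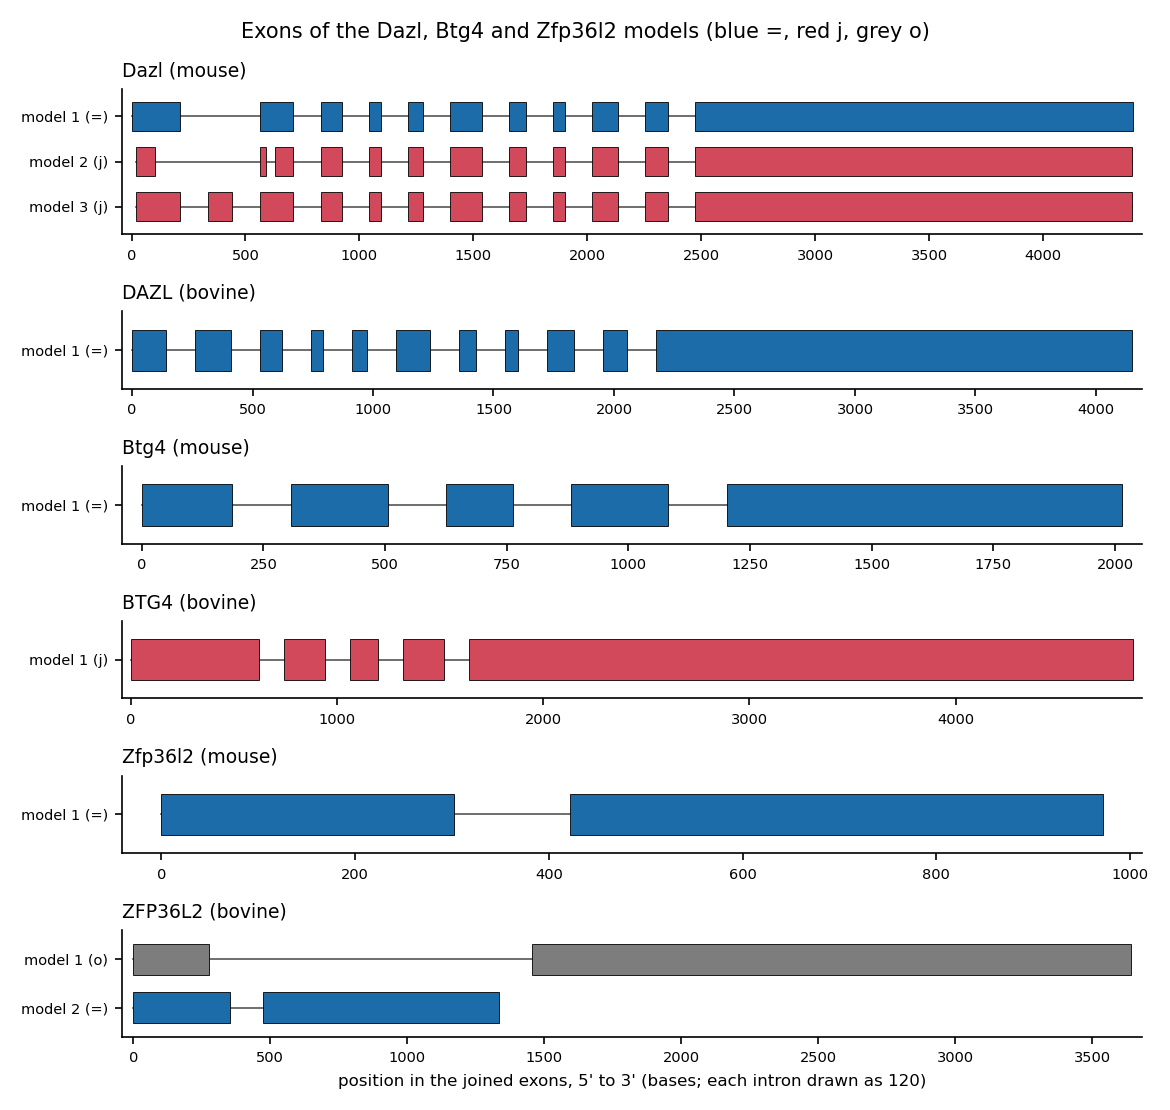
Exons of each Dazl, Btg4 and Zfp36l2 model in mouse and cattle, to scale along the joined exons in bases, 5′ to 3′, with introns shortened to a fixed width; blue models are exact matches, red are of class j and grey is of class o. Mouse Dazl model 3 has an added exon of 109 bases, and the bovine BTG4 last exon of 3222 bases takes up most of its model.

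The internal exons were compared between the species by the pair of models most alike. Internal exon lengths were identical between a mouse and a bovine model for Zar1 and Zar1l (93 and 75 bases), for Btg4 (199, 138 and 199 bases) and for the 9 internal exons of Dazl (147, 92, 52, 64, 140, 72, 51, 114 and 99 bases). Cpeb1 agreed at 9 of 10 internal exons, and the third was 224 bases in mouse and 227 in cattle. That difference is 3 bases. Zfp36l2 has no internal exon. Among all 7037 genes with the same symbol and models of at least 4 exons in both libraries, 39.5% had such an identical pair (38.4% to 40.7%). Genes with 2, 3 or 9 internal exons had 1 in 57.5%, 51.8% and 45.1% of cases.

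The mouse models differed in how much of the coding sequence they held. The whole coding sequence of the main annotated transcript was in Zar1 model 1, in Zar1l models 1, 2 and 6, in Btg4 model 1, in Cpeb1 models 3 and 5 and in Dazl models 1 and 3. Lowest were Zar1l model 4 at 23.7%, Zfp36l2 at 41.4% and Zar1 model 2 at 46.3%. Btg4, Cpeb1 and Dazl had no model below 93.8%. In Zar1l models 1 and 6 and in Dazl model 3 the coding bases were whole but interrupted by added bases.

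**Figure D5:**
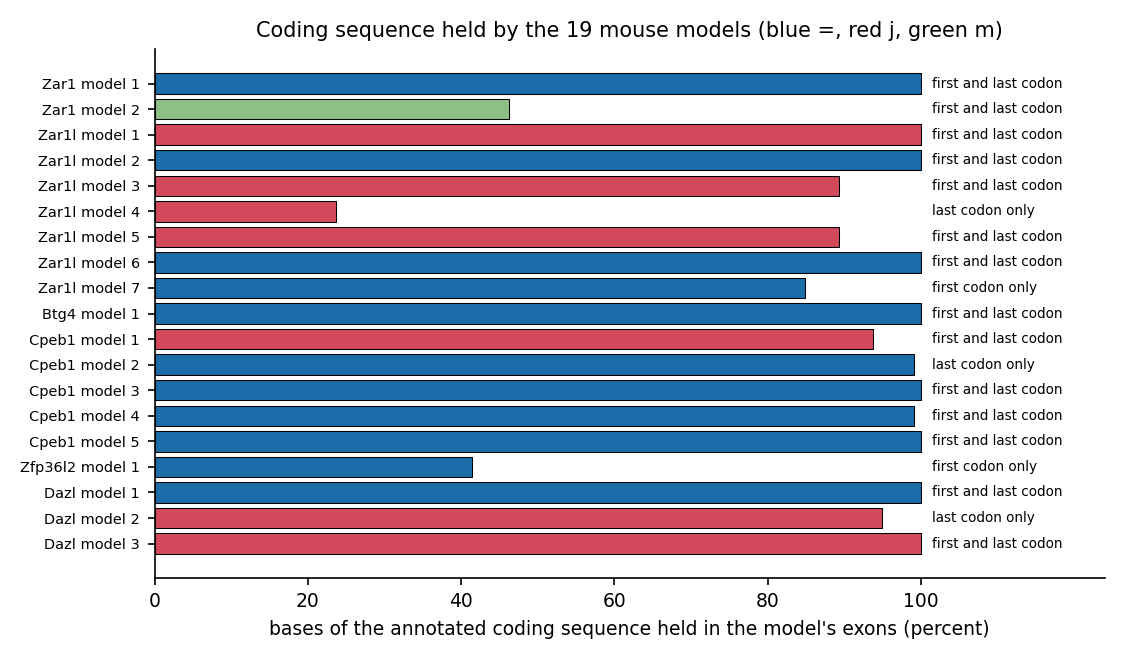
Percent of the bases of the annotated coding sequence (horizontal axis) held in the exons of each of the 19 mouse models, with the annotated codon at either end that the model holds written at the right; colours give the class code. Zar1l model 4, Zfp36l2 model 1 and Zar1 model 2 hold less than the other 16 models, and the reading frame is not taken into account.

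The 3′ ends of the mouse models were read for the polyadenylation signal AATAAA, which directs cleavage of most transcripts. The last 30 bases are printed for 2 genes with the signal, in capitals, and for Zfp36l2, whose end fell in the coding sequence and had no signal.
Zar1, chr5:72577114-72577143, minus strand: aagcctgtgAATAAAaggtattgcaaacaa
Zar1l, chr5:150507055-150507084, minus strand: cttcagcttaaAATAAAccttgtgacagtg
Zfp36l2, chr17:84186607-84186636, minus strand: accccaagtacaagacagagctgtgccgca
The signal began 21 bases before the end in both Zar1 models, 19 in 4 Zar1l models, and 25 or 24 in the Dazl models. The Zar1 end and this Zar1l end are annotated GENCODE ends, and the Dazl ends lay 2 or 1 bases from an annotated end. These signals therefore describe annotated ends and not ends found by the models alone. In the 20 bases after the Zfp36l2 end, 3 were A, and 4 were A after the Zar1 end, so neither end stood before a run of A in the annotated sequence. The Zar1l model that ended at 150507069 had no whole signal in its last 30 bases. It carries the reference identifier and stopped 14 bases before the end printed above, inside the same AATAAA. No sequence was at hand for the other Zar1l ends or the Btg4 end, and the Cpeb1 end is not reported here.

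In the last 100 bases of 1 annotated transcript per gene, the cytoplasmic polyadenylation element that CPEB1 reads was sought as TTTTAT or TTTTAAT on the transcript strand. Zar1l was not read, since its annotated 3′ untranslated region has 14 bases. Among the other 5 mouse genes only Btg4 held it, as TTTTAT beginning 67 bases before the annotated end, and the Btg4 model ran 49 bases beyond that end.
Btg4, chr9:51119799-51119828, plus strand: ataaatccctTTTTATgtctttttaaaagt
Capitals mark the element. Of 19911 genes, 13.8% had TTTTAT in this window, 4.97% had TTTTAAT and 17.8% had either, and AATAAA was in 64.5%. Among the 5 genes read, all but Btg4 held AATAAA. The AU-rich word TATTTAT, which TIS11 proteins are known to bind, was in 4.35% of all genes and in none of the 5. A match is a description of these letters and not a bound site.

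RefSeq promoters (GRCm38.p6, 250 bases before to 50 after the start) were given for 5 of the 6 genes. They were searched on both strands for the TATA word TATAAA, the box CCAAT bound by NF-Y, the E-box CANNTG, which includes the sites of the oocyte factor FIGLA, and TAATTG, a homeodomain word of the kind bound by NOBOX. The 3 below are shown for their matches to the words other than the E-box, in capitals, and E-boxes are left in lower case.
Zar1l promoter, chr5:150518110-150518409, minus strand: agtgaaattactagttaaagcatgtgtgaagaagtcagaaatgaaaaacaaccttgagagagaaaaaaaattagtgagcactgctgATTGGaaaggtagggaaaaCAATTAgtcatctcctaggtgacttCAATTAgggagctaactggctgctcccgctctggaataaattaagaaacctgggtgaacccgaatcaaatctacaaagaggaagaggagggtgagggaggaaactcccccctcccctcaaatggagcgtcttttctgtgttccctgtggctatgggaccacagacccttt
Cpeb1 promoter, chr7:81454709-81455008, minus strand: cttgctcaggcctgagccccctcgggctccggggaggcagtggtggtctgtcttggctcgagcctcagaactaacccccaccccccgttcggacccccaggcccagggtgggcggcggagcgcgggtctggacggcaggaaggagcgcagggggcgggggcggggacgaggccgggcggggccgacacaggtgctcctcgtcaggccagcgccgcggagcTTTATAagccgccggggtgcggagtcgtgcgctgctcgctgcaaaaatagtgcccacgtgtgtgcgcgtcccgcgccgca
Btg4 promoter, chr9:51115751-51116050, plus strand: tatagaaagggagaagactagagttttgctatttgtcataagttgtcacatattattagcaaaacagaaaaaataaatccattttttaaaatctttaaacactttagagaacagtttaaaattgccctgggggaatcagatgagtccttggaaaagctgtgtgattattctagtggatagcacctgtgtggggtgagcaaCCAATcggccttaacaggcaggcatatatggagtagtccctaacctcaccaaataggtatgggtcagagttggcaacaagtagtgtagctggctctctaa
Zar1l held TAATTG 2 times, read on the opposite strand, at 145 and 120 bases before the start, and CCAAT on the opposite strand at 164. TAATTG was in 8.00% of 32851 promoters. Models 6 and 7 began 35 bases before that start, inside this window, and the start shared by models 1, 3 and 5 lay 344 bases before it, outside. Cpeb1 held TATAAA on the opposite strand 30 bases before the start, a word found in 13.6% of promoters. CCAAT lay 50 bases before the start in Btg4 and 47 in Dazl, and was in 37.4% of promoters. Zar1 had none of these 3 words, and the start of its model 2 lay 169 bases upstream, inside the window. All 5 promoters held an E-box, as 72.3% of promoters did.

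Other genes of the same pathways were read from 4 lists with 69 genes: CPEB partners, germline RNA-binding proteins, poly(A)-binding and tail-modifying proteins, and relatives of BTG4 and ZFP36L2 with decapping and decay factors. In each library 63 of the 69 had a sense model, 58 in both, 5 in mouse only, 5 in cattle only and 1 in neither. Among all protein-coding mouse genes the share with a sense model was 53.5%. For cattle no such share was computed, so the bovine count has nothing to be set against. The lists were chosen with earlier results of these data known. An exact match was present for 51 of the 63 in mouse, where 72.5% of genes with a model had 1, and for 47 of the 63 in cattle, where 65.5% did. Models per found gene averaged 2.86 in mouse and 3.38 in cattle, against 2.23 and 2.48 over all named genes with a model and 3.17 and 3.33 for the 6 genes. The medians were 2 and 3 for the lists, 2 and 2 for all genes, and 2.5 and 1.5 for the 6 genes.

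In mouse the most models belonged to Celf1, an RNA-binding protein of GU-rich elements, with 17, and to Pabpc4, a cytoplasmic poly(A)-binding protein, with 10. Next came 4 genes with 6 models: Eif4e1b, the oocyte form of the cap-binding protein, Eif4enif1, its partner 4E-T, and Parn and Tent2, a deadenylase and a poly(A) polymerase. No sense model was found for Boll, Btg3, Dnd1, Mos, Msi1 or Zfp36l3. In cattle BOLL, a DAZ family member, and TUT7, a terminal uridylyltransferase, had 10 models each, followed by TENT2 with 9 and by LSM14A and PATL1, repressor proteins of cytoplasmic granules, with 8. There the listed symbols without a model were BTG2, DCP1B, MSI2, NANOS2, NANOS3 and ZFP36L3. Whether each of these symbols has a bovine gene was not checked. BOLL thus had 10 models in cattle and none in mouse.

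The labelled stage was checked against marker genes. All 7 mouse and all 5 bovine genome activation markers had a model, as did all 7 oocyte-derived markers in each. Of markers for other cells, 5 of 10 cumulus and granulosa genes, 2 of 7 sperm genes and 2 of 6 blood and immune genes had a model in mouse, and 4 of 10, 4 of 7 and 4 of 6 in cattle. The same symbols were sought in both species, HBB and Hbb-bs among them. Whether each names a gene in both species was not checked, so these shares may be too low. Among all protein-coding mouse genes the share with a model was 53.5%, and no such share was computed for cattle. None of the markers for other cells had more than 3 models, but neither did the mouse genome activation markers. These counts therefore do not separate other cells from the labelled stage. The part that other cells or sperm had in the models of the 6 genes was not tested.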

How the data were processed

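Polyadenylated RNA was turned into cDNA, amplified with 14 PCR cycles and sequenced on a nanopore flow cell per library, per the labels' protocols. The authors deposited transcript models, with exon start and end positions and a class code for each, per the file headers and attributes. These positions refer to mm10 and bosTau9, per the submitters' processing notes. Aligner, read filters and settings: not given in the sources used here. The files hold no abundance, so the number of models replaced the planned abundance, and merging or filtering in the assembly would change it. Incomplete cDNA would move starts downstream.

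Mouse models were compared with GENCODE M21 on the same assembly. Bovine models were compared with each other and, by exon lengths, with the mouse models. Their relation to the reference was taken from the deposited class codes. Starts or ends within 100 bases were merged in an alternative, and neighbours were sought within 10 kb. Intervals are exact Clopper-Pearson 95% (scipy 1.17.1). Reading and counting were tested on simulated models. Named genes were the 6 genes, the 5 found pathway genes with most models (with ties) and every pathway gene without a model. The members and lists were chosen with earlier results of these data known. The bovine CPEB1 model of class j counts among the models and is otherwise not reported here.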

Additional observations from a re-analysis of the deposited data

How the results depend on the processing

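Every value rests on 1 library per species, with read depth unknown, and bovine sequence was not used here. No paired analysis was possible because each species had 1 library and no test was made. Counting exact matches alone, the 6 genes had 11 models in mouse and 13 in cattle. Leaving out models that carry a reference gene identifier, an alternative chosen after seeing the data, left 10 and 11 models: Zar1l 4 in place of 7, Cpeb1 2 in place of 5, Dazl 2 in place of 3, Zar1 1 in place of 2, Btg4 0 in place of 1, CPEB1 1 in place of 9 and DAZL 0 in place of 1. With every class code counted, the share of genes with an exact match was 65.9% in mouse and 62.8% in cattle, with 2 or more models 53.8% and 59.6%, with 5 or more 11.5% and 14.3%, and with a model other than an exact match 64.5% and 71.4%. Without LOC, Gm and Rik names, the share with an exact match was 76.3% in mouse and 67.3% in cattle, with 2 or more models 55.2% and 61.4%, and with 5 or more 11.2% and 14.1%. Within 100 bases, 12 mouse and 15 bovine starts merged to 10 and 10, and 10 mouse and 10 bovine ends to 7 and 10. With the library's own exact matches as the reference, 9 mouse introns of the 6 genes stood outside it in place of 12. Without other gene names, 60 of the bovine pathway genes were found. The counts of the 6 genes did not change with all class codes, and lost only the unspliced ZAR1 model with at least 2 exons.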
